A study of Homo sapiens with 12 samples.

Results

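Plasmin formation and the breakdown of the extracellular matrix were followed through 9 genes: *PLAU*, *PLAUR*, *SERPINB2*, *TIMP1*, *TIMP2*, *ADAM8*, *ADAMTS14*, *MMP19* and *THBS1*. They were chosen by name, with earlier results of these data known and no threshold in the rule, so their counts below are descriptions, and all 9 were found among the 59251 genes of the count table. RNA-Seq was performed in HL60 cells, a line from human acute myeloid leukemia that lacks the PML-RARA fusion and carries a mutated *p53* gene. Non-treated cells were compared with cells given all-trans retinoic acid (ATRA) at 1 µM, palbociclib at 1 µM as inhibitor of CDK4/6 (CDK4/6i), or the drugs together (CDK4/6i+ATRA) for 48 h, and the labels give no harvest time for the non-treated cells. Each group held 3 libraries, 12 in all, which the labels number as biological replicates of this 1 line. The paper describes its RNA-Seq enrichment analysis as based on independent experiments, and the p-values measure the spread between these libraries.

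Urokinase, the product of *PLAU*, cuts plasminogen into plasmin, a broad protease that dissolves fibrin and matrix proteins, and its receptor *PLAUR* holds it at the cell surface. Serpins such as PAI-2 (*SERPINB2*) block urokinase. The tissue inhibitors of metalloproteinases (*TIMP1*, *TIMP2*) block zinc proteases of the MMP family, to which the ADAM and ADAMTS families are related. Maturing monocytes and neutrophils use both systems when they adhere and migrate, and ATRA is known as an inducer of maturation in HL60 cells.

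The sequences just upstream of 4 members are shown because these genes rose with both drugs and differ in the short motifs they carry. Each is the 250 bases before the RefSeq start of the gene in GRCh38.p14, 5′ to 3′ on the gene's own strand, with matches to the motifs listed next in capitals. *PLAUR* lies on the minus strand at chr19:43670170-43670419, *SERPINB2* on the plus strand at chr18:63887455-63887704, *TIMP1* on the plus strand at chrX:47582186-47582435 and *THBS1* on the plus strand at chr15:39580829-39581078.
PLAUR: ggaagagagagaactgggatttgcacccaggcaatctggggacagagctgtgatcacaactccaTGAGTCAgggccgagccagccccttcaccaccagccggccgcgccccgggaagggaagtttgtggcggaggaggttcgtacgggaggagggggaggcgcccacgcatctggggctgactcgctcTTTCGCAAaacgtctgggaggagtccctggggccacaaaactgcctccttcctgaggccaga
SERPINB2: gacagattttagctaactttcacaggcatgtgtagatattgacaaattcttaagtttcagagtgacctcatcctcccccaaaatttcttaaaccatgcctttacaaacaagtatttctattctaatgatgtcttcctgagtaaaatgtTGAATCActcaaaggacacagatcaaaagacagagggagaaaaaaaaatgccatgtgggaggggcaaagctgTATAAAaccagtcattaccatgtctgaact
TIMP1: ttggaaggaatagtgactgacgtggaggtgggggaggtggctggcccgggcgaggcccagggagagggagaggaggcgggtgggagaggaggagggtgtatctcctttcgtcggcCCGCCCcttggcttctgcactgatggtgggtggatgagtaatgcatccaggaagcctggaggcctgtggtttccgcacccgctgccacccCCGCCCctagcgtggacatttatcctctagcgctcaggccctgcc
THBS1: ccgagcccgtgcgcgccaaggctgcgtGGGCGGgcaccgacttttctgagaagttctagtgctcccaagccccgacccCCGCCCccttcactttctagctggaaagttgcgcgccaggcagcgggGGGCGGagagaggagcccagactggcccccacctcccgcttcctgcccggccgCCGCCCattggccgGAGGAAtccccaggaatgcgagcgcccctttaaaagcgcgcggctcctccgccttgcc

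Motifs were searched on both strands from 250 bases before to 50 bases after the start. The RefSeq table matched 7 members, with a pair of starts for *PLAU*, while *TIMP2* and *MMP19* were not matched. The upstream start of *PLAU* held 0 matches and the downstream start 6. *PLAU* is counted where either start matched, whereas the shares of all promoters are per window. The AP-1 letters TGANTCA occurred in 2 of the 7, *PLAUR* at positions -186 to -180 and *SERPINB2* at -102 to -96 (the start base is 0), and in 7.71% of all 35116 promoters of this length. *SERPINB2* was also the 1 member with TATAAA, at -30 to -25, which 11.5% of all promoters held. The Sp1 letters GGGCGG were found in 5 members (*PLAU*, *TIMP1*, *ADAM8*, *ADAMTS14* and *THBS1*) against 45% of all promoters, including 2 matches in *TIMP1* and 4 in *THBS1*, and in *ADAMTS14* adjacent matches shared a base. The PU.1 letters GAGGAA were found in 3 members (*PLAU*, *ADAM8* and *THBS1*) against 27.9%, and the C/EBP letters TTGCNNAA in 2 (*PLAU* and *PLAUR*) against 10.5%. The E-box CACGTG (7.26% of all promoters) and the cAMP response element TGACGTCA (1.85%) were found in 0 of the 7. These matches describe letters in a window and are not measured binding sites.

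Total counts ranged from 15238994 to 18679544 in the non-treated, ATRA and CDK4/6i libraries and from 12230923 to 14415276 with CDK4/6i+ATRA. Counts were scaled to a common library total (CPM) with TMM factors, which were 1.03 to 1.07 in the first 3 groups and 0.840 to 0.893 with both drugs. Of 10 myeloid markers, 7 were measured, and their summed level was 7311 to 7655 CPM in non-treated cells, 1365 to 1422 after ATRA, 4371 to 4493 after CDK4/6i and 1355 to 1415 with both. *MPO* made up 72.2% of their counts and went from 6517 CPM without treatment to 292.8 after ATRA and 28.0 with both. *CEBPA* (377 to 145 and 76.4 CPM) and *CTSG* (14.0 to 0.623 and 0.638 CPM) also fell in both, *SPI1* (302 to 463 and 855 CPM) and *CEBPE* (169.6 to 409.7 and 284.5 CPM) rose in both, *LYZ* fell after ATRA to 8.03 from 24.2 CPM but rose with both to 40.2, and *CD33* had group means of 77.9 to 118 CPM. The other 3 (*ELANE*, *PRTN3*, *AZU1*) are listed at 0 in every library, and each is placed by the table on several contigs, as are 4468 genes of which 2963 have no count. None of the 9 members is on several contigs. Summed fibroblast markers reached at most 0.466 CPM and epithelial markers at most 0.825 CPM in any library. Endothelial markers summed to 14.0 to 31.4 CPM, nearly all *PECAM1*, and B cell markers to 12.6 to 25.0 CPM, nearly all *CD79A*, with the lowest values of both in CDK4/6i+ATRA libraries, and T cell markers reached at most 3.12 CPM. In a bulk sample, fewer cells of a type and less RNA per cell cannot be told apart.

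A gene was called at an adjusted p under 0.05 from edgeR's quasi-likelihood test over the 13318 genes that passed the expression filter. The 3 comparisons with non-treated cells share those controls, so their values are given side by side. With ATRA, 7 of the 9 members rose and 1 fell, where 32.1% of all tested genes rose and 35.5% fell. With CDK4/6i, 6 rose and 0 fell, against 28.3% and 27.9% of all genes. With CDK4/6i+ATRA, 8 rose and 1 fell, against 41% and 40.7%. The members' median log2 fold change was 2.91, 0.91 and 4.88 in that order, where the median of all tested genes lay between -0.028 and 0.020. These counts need a caveat on the filter: *MMP19* passed it through the CDK4/6i+ATRA libraries and *ADAMTS14* and *THBS1* through ATRA and CDK4/6i+ATRA, so a rise there was required of them. With *ADAMTS14* and *MMP19* set at the least fold that 3 counts per control library allow, the medians became 2.35 for ATRA and 3.94 for both drugs, and 0.84 for CDK4/6i over 8 members.

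**Figure D1:**
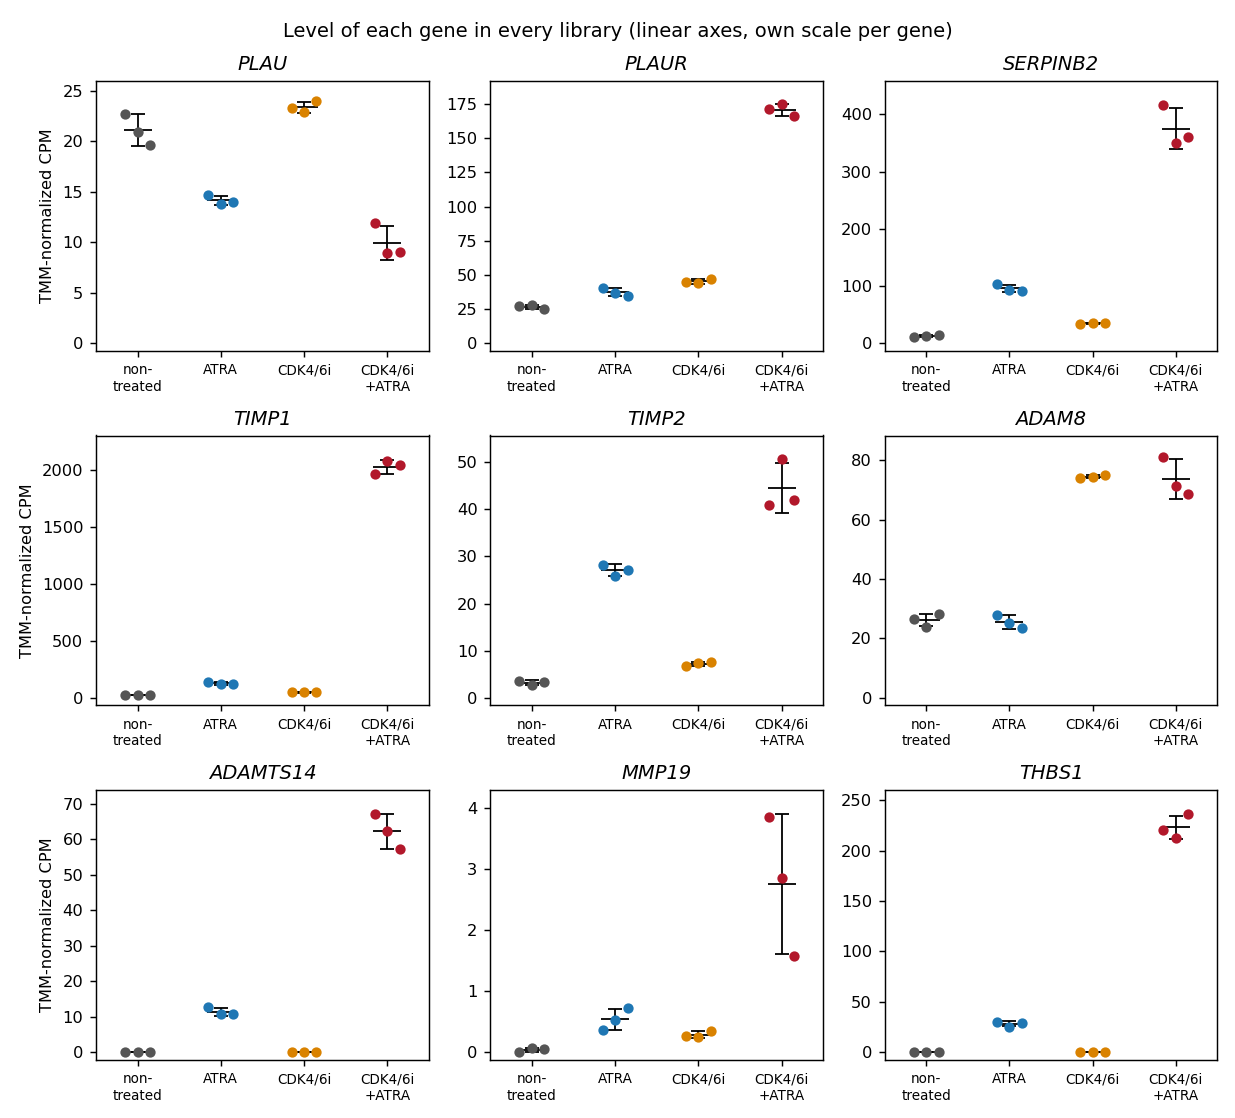
TMM-normalized CPM of the 9 genes in each of the 12 libraries (points), with the mean and SD of 3 libraries (bars) on linear axes that differ between genes. *TIMP1* reached 1960 to 2079 CPM with CDK4/6i+ATRA, while *PLAU* was lowest there at 8.91 to 11.9 CPM and *ADAM8* followed CDK4/6i with or without ATRA.

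The enzyme of the urokinase system fell while its receptor rose. *PLAU* (hg38 chr10:73909164-73917494, plus strand) measured 22.7, 20.9 and 19.6 CPM in the non-treated libraries and 14.7, 13.8 and 14.0 CPM with ATRA. It measured 23.3, 22.9 and 23.9 CPM with CDK4/6i and 11.9, 8.91 and 9.01 CPM with both drugs. The 4 groups did not overlap, and the CDK4/6i+ATRA libraries were lowest. On the log2 scale *PLAU* fell by 0.57 ± 0.090 (SE) with ATRA (edgeR adjusted p = 2.43e-07) and by 1.09 ± 0.10 with both drugs (edgeR adjusted p = 2.32e-13). With CDK4/6i alone the log2 difference was 0.15, with a 95% interval from -0.020 to 0.32, and did not pass the threshold (edgeR adjusted p = 0.13). *PLAU* shares 5 stretches of exon with the opposite-strand gene *C10orf55*, which held 56 counts over all libraries against 3360 for *PLAU*, and the strand setting of the counting is not given in the sources used here.

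*PLAUR* (chr19:43646095-43670169, minus strand), the receptor that anchors urokinase, measured 27.2, 28.0 and 24.8 CPM in non-treated cells, 40.4, 36.8 and 34.5 CPM after ATRA and 44.7, 43.9 and 47.4 CPM after CDK4/6i. With CDK4/6i+ATRA it reached 171, 175 and 166 CPM. Each group was separate from the others, and the gap between the single drugs was small beside the rise with both. The log2 fold change was 0.48 ± 0.064 (SE) with ATRA (edgeR adjusted p = 4.23e-09), 0.77 ± 0.062 with CDK4/6i (edgeR adjusted p = 3.05e-15) and 2.68 ± 0.056 with both (edgeR adjusted p = 6.24e-40). Per kilobase of exon, the ratio of *PLAU* to *PLAUR* was 0.613 ± 0.0345 (SD, n = 3) without treatment, 0.296 ± 0.0173 after ATRA, 0.400 ± 0.00727 after CDK4/6i and 0.0451 ± 0.00772 after both drugs. The ratio did not overlap between any pair of groups, but 3 libraries against 3 cannot give an exact two-sided permutation p below 0.1.

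*SERPINB2* (chr18:63887705-63903888, plus strand), which encodes the urokinase inhibitor PAI-2, rose in all treated groups, while *PLAU* fell in those given ATRA and did not pass the threshold with CDK4/6i alone. It measured 11.4, 12.7 and 14.0 CPM in non-treated cells, 103.5, 92.4 and 91.4 CPM after ATRA, 33.9, 35.9 and 35.6 CPM after CDK4/6i, and 416, 349.5 and 360.1 CPM with both drugs. The groups did not overlap, and the order was CDK4/6i+ATRA, ATRA, CDK4/6i, non-treated. The rises were 7.53-fold with ATRA (log2 2.91 ± 0.072, SE; edgeR adjusted p = 4.87e-36), 2.76-fold with CDK4/6i (log2 1.46 ± 0.083; edgeR adjusted p = 7.73e-21) and 29.5-fold with both (log2 4.88 ± 0.066; edgeR adjusted p = 5.3e-48). The ratio of *SERPINB2* to *PLAU* per kilobase was 0.373 ± 0.0653 (SD, n = 3) without treatment, 4.15 ± 0.170 after ATRA, 0.924 ± 0.0359 after CDK4/6i and 23.4 ± 1.67 after both drugs. Transcript of the inhibitor was thus below that of the enzyme in non-treated and CDK4/6i libraries and above it in every library given ATRA. For CDK4/6i this order depends on the lengths: in CPM without division by length, *SERPINB2* was at 35.1 against 23.4 for *PLAU*.

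**Figure D2:**
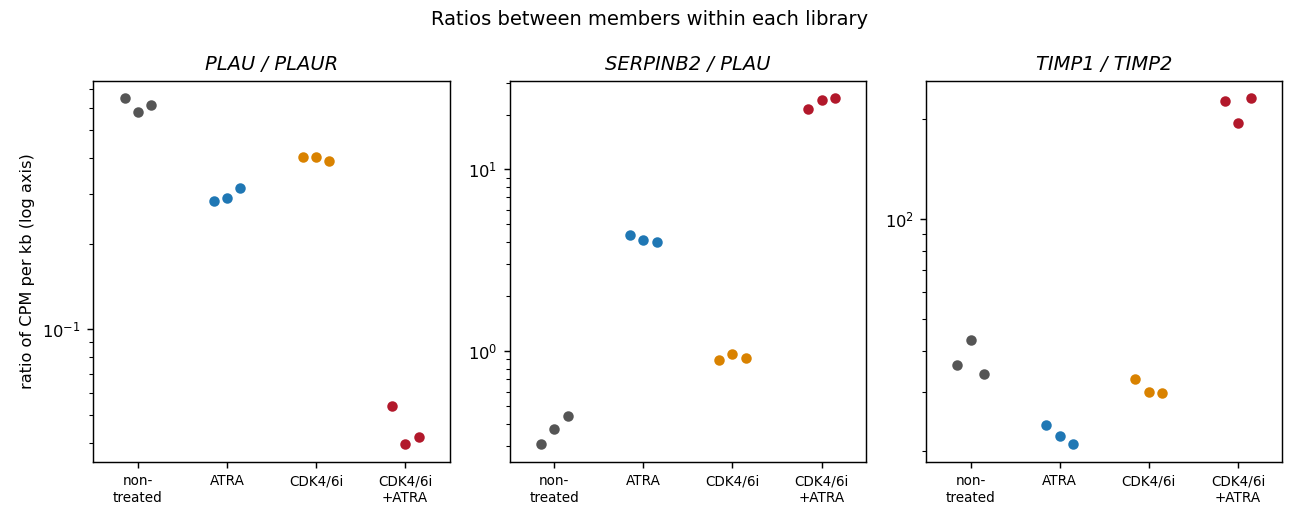
Ratios of CPM per kilobase between pairs of members in each library (points, log axes), 3 libraries per group. *PLAU* over *PLAUR* was 0.0395 to 0.0539 with CDK4/6i+ATRA against 0.579 to 0.648 in non-treated cells, while *SERPINB2* over *PLAU* rose to 21.4 to 24.6 and *TIMP1* over *TIMP2* to between 195 and 230.7.

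The metalloproteinase inhibitor *TIMP1* (chrX:47582436-47586789, plus strand) had the highest level per length of the 9 members in every group. It measured 27.0, 23.8 and 24.2 CPM in non-treated cells, 142, 121 and 119.6 CPM after ATRA, 46.4, 46.5 and 47.9 CPM after CDK4/6i, and 1960, 2079 and 2039 CPM with both drugs. The CDK4/6i+ATRA libraries stood far above all others, and the other 3 groups did not overlap. *TIMP1* rose 5.1-fold with ATRA (log2 2.35 ± 0.060, SE; edgeR adjusted p = 1.85e-35), 1.88-fold with CDK4/6i (log2 0.91 ± 0.067; edgeR adjusted p = 1.09e-16) and 81.0-fold with both (log2 6.34 ± 0.059; edgeR adjusted p = 9.28e-55). It took 0.00259% of all counts in non-treated cells and 0.175% with CDK4/6i+ATRA. By CPM per kilobase it ranked 1803 of 13318 tested genes in non-treated cells and 35 with both drugs. *TIMP1* lies within the opposite-strand gene *SYN1* without sharing exons, and *SYN1* held 156 counts over all libraries against 79672.

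*TIMP2* (chr17:78852977-78925387, minus strand), which inhibits metalloproteinases and also takes part in the activation of pro-MMP2 by MMP14, followed ATRA more closely. It measured 3.55, 2.63 and 3.38 CPM in non-treated cells, 28.3, 25.9 and 27.2 CPM after ATRA, 6.69, 7.33 and 7.61 CPM after CDK4/6i, and 41.0, 50.6 and 42.0 CPM with both drugs. No groups overlapped. The log2 fold change was 3.08 ± 0.12 (SE) with ATRA (edgeR adjusted p = 2.95e-28), 1.17 ± 0.15 with CDK4/6i (edgeR adjusted p = 1.8e-09) and 3.80 ± 0.11 with both (edgeR adjusted p = 3.18e-33). The ratio of *TIMP1* to *TIMP2* per kilobase went from 37.7 ± 4.67 (SD, n = 3) without treatment to 22.3 ± 1.52 with ATRA, 31.0 ± 1.67 with CDK4/6i and 217.6 ± 19.7 with both drugs, so the single drugs and the combination lay on opposite sides of the non-treated level.

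**Figure D3:**
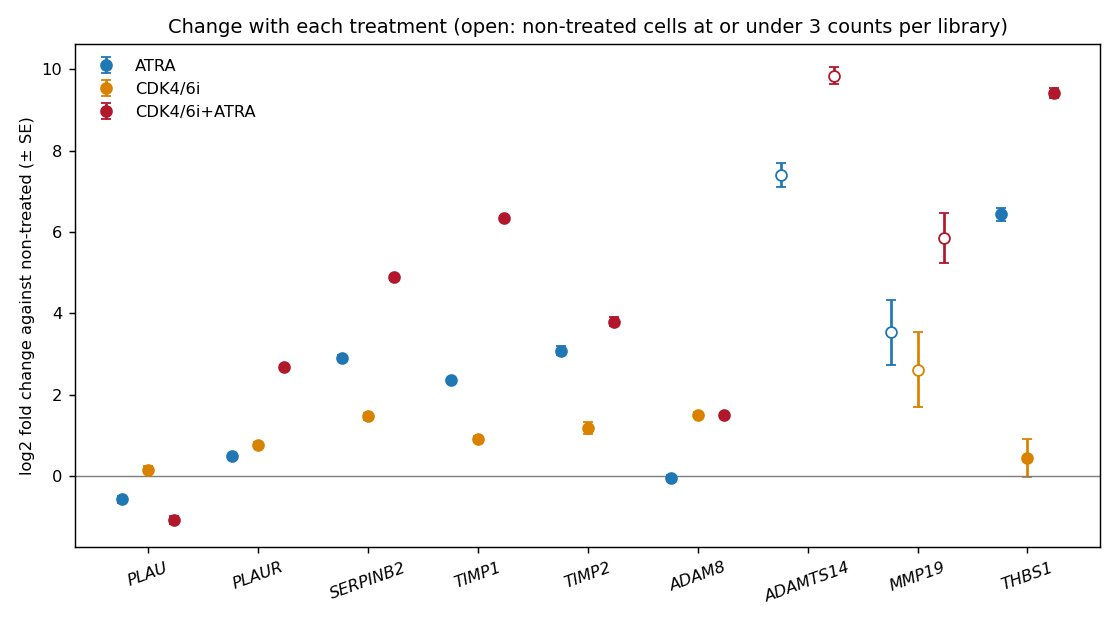
Fitted log2 fold change against non-treated cells with its SE for each gene and treatment, 3 libraries per group. Open symbols mark *ADAMTS14* and *MMP19*, whose non-treated libraries held 3 counts or fewer each, and *ADAMTS14* with CDK4/6i is left out because both groups were at that floor; *PLAU* is the gene below 0 with ATRA and with both drugs, at -0.57 and -1.09.

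*ADAM8* (chr10:133262423-133276868, minus strand), a membrane-anchored metalloproteinase of leukocytes, responded to CDK4/6i in both settings. It measured 26.4, 24.0 and 28.2 CPM in non-treated cells and 27.9, 25.2 and 23.5 CPM with ATRA. It measured 73.8, 74.4 and 74.9 CPM with CDK4/6i and 81.2, 71.2 and 68.5 CPM with both drugs. Non-treated and ATRA libraries overlapped, as did CDK4/6i and CDK4/6i+ATRA libraries, and the second pair lay entirely above the first. CDK4/6i raised *ADAM8* 2.84-fold without ATRA (log2 1.50 ± 0.064, SE; edgeR adjusted p = 9.06e-26) and 2.89-fold with it (log2 1.53 ± 0.067; edgeR adjusted p = 9.72e-26). The log2 difference made by ATRA was -0.043 in the absence of CDK4/6i, with a 95% interval from -0.19 to 0.11 (edgeR adjusted p = 0.619), and -0.016 in its presence, with an interval from -0.14 to 0.10 (edgeR adjusted p = 0.808). Under library size alone, without TMM, the latter was -0.29 (edgeR adjusted p = 0.00016), where the median of all tested genes was -0.28.

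*ADAMTS14* (chr10:70672506-70762441, plus strand), a procollagen N-proteinase, was read almost entirely in libraries given ATRA. The non-treated libraries held 2, 0 and 1 counts and the CDK4/6i libraries 0, 0 and 0, while ATRA gave 205, 186 and 194 counts (12.6, 10.8 and 10.7 CPM) and both drugs gave 731, 698 and 694 counts (67.0, 62.2 and 57.3 CPM). A floor of 3 counts corresponded to 0.156 to 0.188 CPM in non-treated and CDK4/6i libraries, so lower levels were not detectable at this depth. From the summed counts the level with ATRA was 191 times that of non-treated cells (95% exact interval 64.9 to 927), and with both drugs 1041 times (356 to 5051). These intervals cover counting error only, and at a floor of 3 counts per non-treated library the ratios would be 63.6 and 347. Without non-treated replicate 1, which held 2 of the 3 control counts, the fitted log2 change went from 7.40 to 8.24 with ATRA and from 9.85 to 10.69 with both drugs. Both groups given ATRA were called higher (edgeR adjusted p = 2.18e-26 and 4.09e-38). Against CDK4/6i alone, the level with both drugs was at least 363-fold higher, taking 3 counts per library as the floor. No fold is given for CDK4/6i against non-treated cells, where both groups were at or under the floor.

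*MMP19* (chr12:55835433-55842936, minus strand), a matrix metalloproteinase that digests basement membrane proteins, had the lowest level per length of the members with ATRA and with both drugs. It held 0, 1 and 1 counts in non-treated libraries, 6, 9 and 13 with ATRA, 5, 4 and 6 with CDK4/6i and 42, 32 and 19 with both drugs. The CDK4/6i+ATRA libraries spanned 1.57 to 3.85 CPM, above every other library, and the ATRA and CDK4/6i libraries were all under 1 CPM. The ratio to non-treated cells was 13.7 with ATRA (95% exact interval 3.45 to 119), 7.16 with CDK4/6i (1.67 to 64.5) and 68.4 with both (18.4 to 573). These intervals cover counting error only. At a floor of 3 counts per non-treated library the ratios would be 3.00, 1.59 and 15.4. All 3 treated groups were called higher (edgeR adjusted p = 0.000138, 0.0129 and 4.4e-12), but without non-treated replicate 1 the call for CDK4/6i was lost (edgeR adjusted p = 0.0623). The opposite-strand gene *TMEM198B* shares 1 stretch of exon with *MMP19* and held 248 counts over all libraries against 138 for *MMP19*, so part of these reads could belong to either gene if strand was not used.

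*THBS1* (chr15:39581079-39599466, plus strand) encodes thrombospondin-1, a matrix protein that binds CD36 and CD47 and activates latent TGF-beta. It held 6, 6 and 4 counts in non-treated libraries (0.361, 0.376 and 0.225 CPM) and 11, 5 and 7 with CDK4/6i (0.570, 0.306 and 0.410 CPM). It rose to 29.6, 25.4 and 29.4 CPM with ATRA and to 220.2, 213 and 236 CPM with both drugs. Non-treated and CDK4/6i libraries overlapped, while each group given ATRA stood apart. The rise was 86.4-fold with ATRA (log2 6.43 ± 0.17, SE; edgeR adjusted p = 2.65e-35) and 685-fold with both drugs (log2 9.42 ± 0.12; edgeR adjusted p = 8.73e-50), and the log2 difference with CDK4/6i was 0.45, with a 95% interval from -0.48 to 1.37 (edgeR adjusted p = 0.427). The summed platelet and megakaryocyte markers, a lineage rich in thrombospondin-1, were 1.68 to 3.04 CPM in non-treated cells, 3.37 to 3.73 after ATRA, 7.26 to 9.23 after CDK4/6i and 8.65 to 10.7 with both, with 1 of the 5 listed markers (*ITGA2B*) passing the filter and *PF4* listed at 0 throughout. *FSIP1*, on the opposite strand, shares 1 stretch of exon with *THBS1* and held 243 counts over all libraries against 9137. *THBS1* itself held 16 counts in the non-treated and 23 in the CDK4/6i libraries. Part of the reads in these groups could belong to either gene if strand was not used.

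Compared per kilobase within a group, the order of the members changed with treatment. In non-treated cells it was *TIMP1* (32.5 CPM per kb), *PLAUR* (11.1), *PLAU* (6.82), *ADAM8* (6.05), *SERPINB2* (2.52) and *TIMP2* (0.872), with *THBS1*, *MMP19* and *ADAMTS14* under 0.05 CPM per kb. *PLAU* and *ADAM8* overlapped between libraries there. With CDK4/6i+ATRA it was *TIMP1* (2635), *SERPINB2* (74.5), *PLAUR* (71.3), *THBS1* (28.2), *ADAM8* (17.0), *TIMP2* (12.2), *ADAMTS14* (9.94), *PLAU* (3.22) and *MMP19* (0.825), and *SERPINB2* overlapped *PLAUR*. *PLAU* thus went from the third place of 9 to the eighth. The 9 members together took 0.0119% ± 0.000252 (SD, n = 3) of all counts without treatment, 0.0392% ± 0.00294 after ATRA, 0.0244% ± 0.000693 after CDK4/6i and 0.258% ± 0.00751 after both drugs.

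Adding the second drug to the first changed nearly all members. Against ATRA alone, CDK4/6i+ATRA raised 8 and lowered 1 (*PLAU*), where 36.9% of tested genes rose and 32.8% fell, with a median log2 change of 2.20 over the members and 0.044 over all genes. The filter bears on these counts too, since *MMP19* met its level with both drugs and in no other group, and *ADAMTS14* and *THBS1* did not meet it with CDK4/6i. With at least 10 counts in every library, 5 of 6 members rose against ATRA and 1 fell, beside 41.2% and 35.8% of all genes under that filter. Against CDK4/6i 4 of 6 rose and 1 fell, beside 41.8% and 41.9%. The rises ran from 1.64-fold for *TIMP2* (log2 0.72 ± 0.080, SE; edgeR adjusted p = 4.61e-11) to 15.9-fold for *TIMP1* (log2 3.99 ± 0.049; edgeR adjusted p = 7.92e-49). Between them lay *ADAMTS14* at 5.46-fold, *MMP19* at 4.99-fold and *THBS1* at 7.93-fold. Against CDK4/6i alone, 7 rose, 1 fell and *ADAM8* did not pass, where 39.1% of tested genes rose and 39.5% fell. The median was 3.23 over the members and 0.0014 over all genes, and the fitted rise of *THBS1* was 503-fold (edgeR adjusted p = 9.73e-50).

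Whether the drugs acted independently on the log scale was asked with the interaction term, the log2 effect of ATRA with CDK4/6i minus its effect without. It was positive past the threshold for 5 members and negative for 2, against 24.5% and 27% of all tested genes. The greatest excess with a measurable control level was that of *TIMP1*: the single folds multiplied to 9.58, but both drugs gave 81.0-fold (interaction 3.08 ± 0.084, SE; edgeR adjusted p = 1.46e-32). *THBS1* had a product of 117 and an observed fold of 696 in mean CPM (2.54 ± 0.53; edgeR adjusted p = 5.91e-05), and *PLAUR* a product of 2.37 and an observed fold of 6.41 (1.43 ± 0.083; edgeR adjusted p = 2.92e-20). *SERPINB2* was nearer to its product, 29.6-fold against 20.9 (0.51 ± 0.10; edgeR adjusted p = 3.22e-05), and this call was lost under library size alone (0.19, edgeR adjusted p = 0.168), where the median interaction of all genes was -0.34. The remaining positive call, *ADAMTS14* (edgeR adjusted p = 0.00526), rests on 2 groups at the floor and was lost without non-treated replicate 1 (edgeR adjusted p = 0.0847).

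*PLAU* fell to 0.472 of its non-treated level where the product of the single changes was 0.744 (interaction -0.66 ± 0.14, SE; edgeR adjusted p = 6.7e-05). *TIMP2* reached 14.0-fold where the product was 19.3 (-0.45 ± 0.17; edgeR adjusted p = 0.0225). That call was lost without non-treated replicate 2 (-0.34, edgeR adjusted p = 0.122) and without CDK4/6i replicate 3 (-0.41, edgeR adjusted p = 0.0564), and on the linear scale the level with both drugs was 13.4 CPM above the sum of the single effects. *ADAM8* reached 2.81-fold with a product of 2.77, and its interaction of 0.027 had a 95% interval from -0.16 to 0.22 (edgeR adjusted p = 0.84), while under library size alone it was -0.29 (edgeR adjusted p = 0.019), where the median of all genes was -0.34. *MMP19* had an interaction of -0.30 with an interval from -1.78 to 1.18 (edgeR adjusted p = 0.768), which its counts could not narrow.

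**Figure D4:**
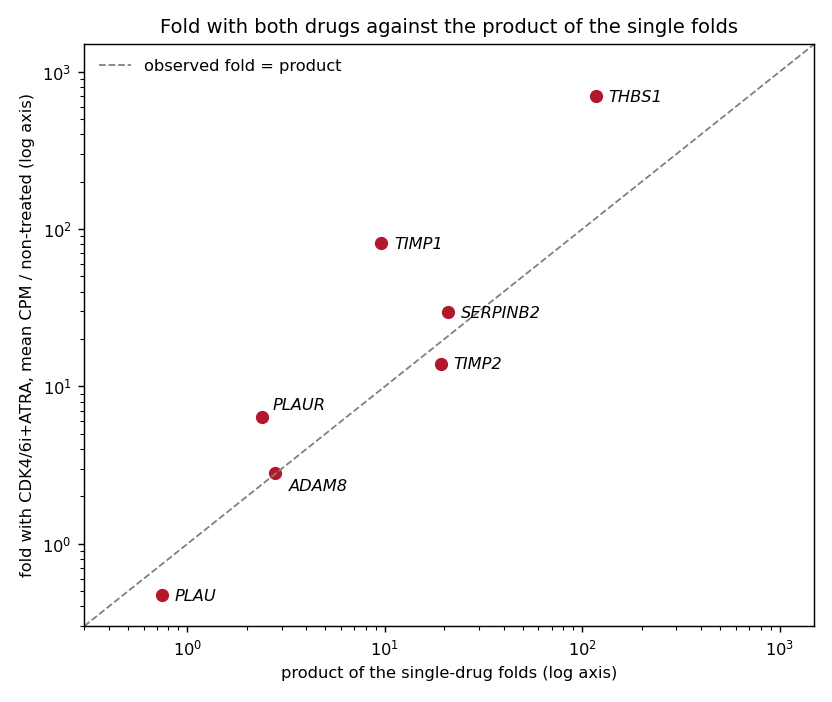
Fold with CDK4/6i+ATRA in mean CPM against the product of the single-drug folds, both on log axes, for the 7 genes with a control level above the floor in some library; the dashed line marks equality. *TIMP1* lies at 81.0 against a product of 9.58 and *ADAM8* at 2.81 against 2.77, while *PLAU* and *TIMP2* lie under the line.

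The members were set in a wider list of 94 genes of the same systems, of which 46 passed the filter, and 6 of the 48 that did not are placed on several contigs by the table. With CDK4/6i+ATRA, 31 of the 46 were higher and 12 lower than in non-treated cells, with a median log2 change of 1.46. Without the 9 members, 23 of 37 were higher and 11 lower, with a median of 1.14, beside 41% and 40.7% of all tested genes and a median of 0.018. The filter shaped this split: 13 of the 23 that were higher met its level with both drugs but not in non-treated cells, so their rise was required, and 3 of the 11 that were lower met it the other way round. Of the 20 that met the level in both groups, 10 were higher and 7 lower. With at least 10 counts in every library, 8 of 16 were higher and 6 lower, beside 43.8% and 42.7% of all genes tested under that filter, so no excess of rises with both drugs is drawn from the list. For these 16 genes CDK4/6i alone gave 9 higher and 3 lower, beside 33% and 32.4%, and ATRA alone 7 higher and 8 lower, beside 34.6% and 39.1%. The combination gave 8 higher and 6 lower against ATRA, beside 41.2% and 35.8%, and 7 and 7 against CDK4/6i, beside 41.8% and 41.9%. The counts over all 46 include the 9 chosen members and genes that passed the filter through the treated libraries alone, which favours rises. With ATRA 23 of the 46 (50%) were higher and 13 (28.3%) lower, beside 32.1% and 35.5% of all tested genes, and with CDK4/6i 21 (45.7%) were higher and 3 (6.52%) lower, beside 28.3% and 27.9%. Against ATRA alone the combination raised 29 (63.0%) and lowered 11 (23.9%), beside 36.9% and 32.8%, and against CDK4/6i alone it raised 26 (56.5%) and lowered 13 (28.3%), beside 39.1% and 39.5%. The interaction was positive for 15 (32.6%) and negative for 13 (28.3%), near the 24.5% and 27% of all tested genes. By role, the calls with CDK4/6i+ATRA were 3 higher and 3 lower of 7 tested plasminogen activators and receptors, and 5 higher and 0 lower of 6 tested serpins and other plasmin inhibitors. They were 7 higher and 2 lower of 9 MMPs and their inducer, 6 higher and 2 lower of 8 ADAMs, 2 higher and 3 lower of 5 ADAMTS genes, 4 higher and 2 lower of 6 thrombospondins and receptors, 2 higher of 3 TIMPs and *RECK*, and 2 higher of 2 coagulation genes. These role counts include the 9 members and stand beside 41% and 40.7% of all tested genes. The filter limit holds for them too: most of the 7 higher MMPs, *MMP14* and *MMP19* among them, met its level with both drugs but not in non-treated cells.

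**Figure D5:**
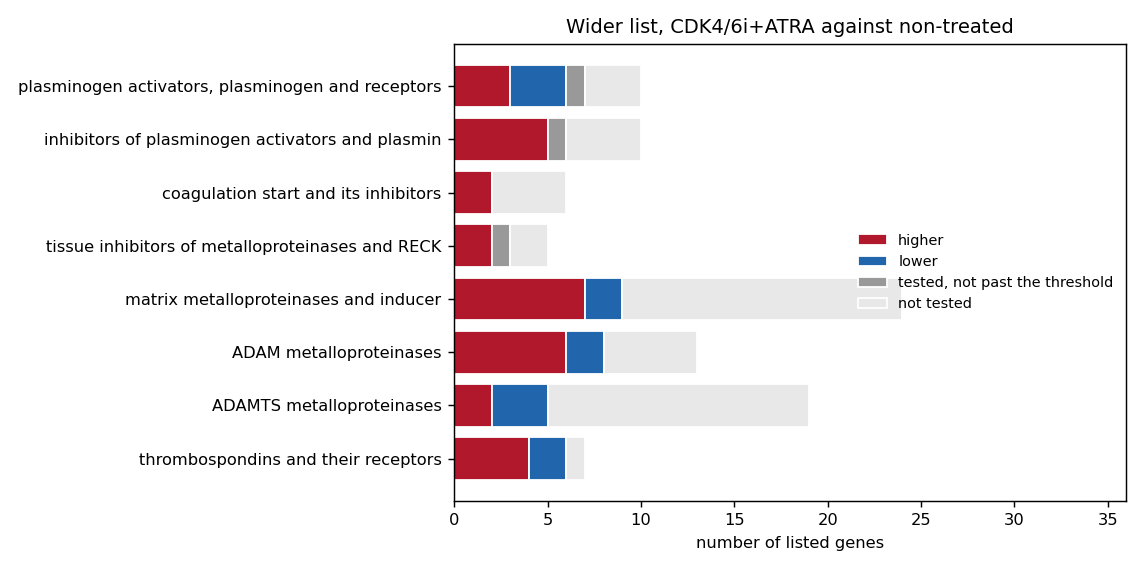
Number of listed genes in each of 8 role groups that were higher, lower or not past the threshold when CDK4/6i+ATRA was set against non-treated (edgeR, adjusted p under 0.05), and those not tested; the groups include the 9 members. All 9 tested genes of the group of MMPs and their inducer passed, and 15 were not tested. Of these 9, 7 were higher and 2 lower, beside 41% and 40.7% of all tested genes. Most of the 7, *MMP14* and *MMP19* among them, met the filter's level with both drugs but not in non-treated cells, so their rise was required.

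Further genes of the wider list had a mean of at least 5 CPM and were called with a change of at least 2-fold with CDK4/6i+ATRA. They were picked by that comparison, so its p-values describe them and are no further support. *SERPINB6*, an intracellular serpin, stood at 8.61 CPM in non-treated cells and 22.5 with both drugs (log2 1.39 ± 0.10, SE; edgeR adjusted p = 2.78e-17), but already at 19.3 with ATRA and 19.8 with CDK4/6i alone. Its difference between both drugs and CDK4/6i did not pass (edgeR adjusted p = 0.0557), and its interaction was -0.98 ± 0.13 (SE; edgeR adjusted p = 1.8e-08). *F3*, tissue factor, which starts coagulation, rose from 5.57 ± 0.608 CPM (SD, n = 3) to 60.7 ± 0.495 with both drugs, but was at 8.36 ± 1.32 with ATRA and 6.18 ± 0.318 with CDK4/6i (interaction 2.72 ± 0.17, SE; edgeR adjusted p = 1.76e-19).

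*MMP14*, the membrane-type protease that activates pro-MMP2, stood at 0.358 CPM in non-treated cells, 4.03 after ATRA, 0.346 after CDK4/6i and 18.3 with both (log2 5.64 ± 0.24, SE; edgeR adjusted p = 6.58e-27). Like *CD36* below, *MMP14* met the filter's level with both drugs but not in non-treated cells, so its rise was required. *MMP25*, a membrane-anchored protease of neutrophils, was highest with ATRA alone at 23.5 CPM and lower with both drugs at 17.7 CPM (log2 -0.41 ± 0.099, SE; edgeR adjusted p = 0.000314). The sheddases *ADAM10* and *ADAM17* rose with both drugs from 142 to 384 CPM and from 42.6 to 158 CPM (edgeR adjusted p = 3.27e-35 and 2.71e-36). *ADAM15* fell from 187 to 63.6 CPM and *ADAM22*, which lacks protease activity, from 15.6 to 2.20 CPM (edgeR adjusted p = 3.01e-33 and 1.58e-20), so the ADAM family moved both ways. Of the receptors of thrombospondin-1, *CD36* held 0 counts in all non-treated and CDK4/6i libraries and reached 5.19 ± 0.632 CPM (SD, n = 3) with ATRA and 26.1 ± 1.84 with both drugs, at least 146-fold higher than in non-treated cells with 3 counts per library as the floor. *CD47* went the other way, from 366 ± 6.85 to 122.7 ± 2.13 CPM (log2 -1.57 ± 0.041, SE; edgeR adjusted p = 4.56e-36).

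The genes whose log2(CPM + 1) was most like that of a member were ranked by Pearson's r over the 12 libraries, which share the 4 groups, so the values describe a shared pattern over treatments. *THBS1* was closest to *HPCAL1*, *SMAD3* and *SLC5A3*, all at r = 0.999, and *ADAMTS14* to *ZNF106*, *SLC5A3* and *THBS1* (0.999 each). *TIMP1* was closest to *SPI1*, *JUNB* and *TGOLN2* (0.998 each), of which *JUNB* went from 68.1 to 477 CPM and *SPI1*, the gene of PU.1, from 302 to 855 CPM with both drugs. *SERPINB2* was closest to *INPPL1* (0.999), *PIK3R5* and *BTG2* (0.998 each), *TIMP2* to *BCL2A1* (0.997), *S100A9* and *DYSF* (0.996 each), and *PLAUR* to *PCYT1A*, *MLF2* and *STK40* (0.997 each). *PLAU* was closest to *EPDR1* (0.990), *MRPS25* (0.988) and *NCALD* (0.987), and *ADAM8* to *SLC38A10* (0.989), *ZNF516* (0.988) and *MPG* (0.985). *MMP19* was under 5 CPM and was not ranked.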

How the data were processed

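RNA-Seq of HL60 cells covered 12 libraries, 3 per group. Per the labels, the authors trimmed reads with Trimmomatic 0.33 and aligned them to hg38 with STAR 2.7.11a. The authors deposited raw counts per gene, whole numbers without normalization, beside exonic lengths. The paper names RSEM, whereas the table has the layout that featureCounts writes, and whether reads were counted by strand is not given in the sources used here. Reads that map to several contigs may be lost from the counts.

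Groups were taken from the sample titles. The expression filter was filterByExpr over the 4 groups, and counts were normalized with TMM and tested with the quasi-likelihood F test of edgeR 4.0.16 (R 4.3.3) in 1 model of 4 groups with 8 residual degrees of freedom, 6 comparisons and Benjamini-Hochberg adjustment over 13318 genes. The SE of a log2 fold change was derived from its F statistic. The test also borrows the spread of all genes, so its p-values and intervals rest on more degrees of freedom than these 8. CPM per kb divides TMM-normalized CPM by exonic length. The script was tested on simulated data. At the depths found, from 12230923 to 18679544 counts, a floor of 3 counts was 0.156 to 0.275 CPM. Libraries of 1 group differed by more than sampling noise (chi-square per degree of freedom 1.81 to 6.22), with a common biological coefficient of variation of 3.70%.

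The members, the wider list, the marker lists and the motifs were chosen with earlier results of these data known. Genes named were the 9 members, listed genes with a mean of at least 5 CPM changed at least 2-fold with CDK4/6i+ATRA, and the 3 genes most like each member with at least 5 CPM. A gene that this rule covers is not reported here. Alternatives were edgeR with the size factors of DESeq2 or with library size alone, no filter, at least 10 counts in every library, DESeq2 1.42.0, only the groups compared, a replicate block, the linear scale and leaving out each library. Figures were drawn with matplotlib 3.10.9.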

Additional observations from a re-analysis of the deposited data

Results flagged for a closer look

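The effect of ATRA differed with and without CDK4/6i, by the interaction term of the edgeR model, for 7 of the 9 members, where 24.5% of all tested genes were positive and 27% negative. On the log2 scale the difference was 3.08 for *TIMP1*, 2.54 for *THBS1*, 1.43 for *PLAUR* and 0.51 for *SERPINB2*, each with a higher effect of ATRA when CDK4/6i was present. It was -0.66 for *PLAU* and -0.45 for *TIMP2*. The call of *SERPINB2* was lost under library size alone (edgeR adjusted p = 0.168), and that of *TIMP2* without non-treated replicate 2 (edgeR adjusted p = 0.122) or CDK4/6i replicate 3 (edgeR adjusted p = 0.0564). For *ADAMTS14* the fitted difference was 5.54, which depends on the small constant the fit adds to counts, since the non-treated and CDK4/6i libraries were at or under 3 counts each, and it is no bound; that call was lost without non-treated replicate 1 (edgeR adjusted p = 0.0847). Groups of 3 libraries were not examined for outliers.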

How the results depend on the processing

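Of 1008 values of single members under alternatives, 987 kept their direction and, where a test was run, their side of the threshold. Values on the linear scale were not tested and were compared by direction alone. With at least 10 counts in every library, *ADAMTS14*, *MMP19* and *THBS1* were not tested, so 5 members were called for ATRA against non-treated and 5 for CDK4/6i+ATRA against CDK4/6i. Under the same filter 22 genes of the wider list were tested, and 20 were called for ATRA against non-treated (11 higher, 9 lower, beside 34.6% and 39.1% of all genes), 17 for CDK4/6i (14 and 3, beside 33% and 32.4%), 20 for CDK4/6i+ATRA against non-treated (13 and 7, beside 43.8% and 42.7%), 20 for CDK4/6i+ATRA against ATRA (13 and 7, beside 41.2% and 35.8%), 19 for CDK4/6i+ATRA against CDK4/6i (11 and 8, beside 41.8% and 41.9%) and 18 in the interaction (8 and 10, beside 30.3% and 30.5%). The splits over the 46 genes were 23 and 13, 21 and 3, 31 and 12, 29 and 11, 26 and 13, and 15 and 13 in that order. On the linear scale the interaction was 13.4 CPM for *TIMP2*, 1.97 CPM for *MMP19* and -0.070 CPM for *ADAM8*, each opposite in sign to its log2 value. The other reversed values were those of *ADAM8* and *MMP19* that were not called in the reported fit. For *ADAM8*, CDK4/6i+ATRA against CDK4/6i was 0.014 with at least 10 counts in every library, and the interaction was -0.29 under library size alone, past the threshold there (edgeR adjusted p = 0.019), and -0.060 without a filter. Leaving out 1 library in turn gave *ADAM8* -0.11 to 0.015 for ATRA against non-treated, -0.091 to 0.034 for CDK4/6i+ATRA against CDK4/6i and -0.048 to 0.093 for the interaction, and gave *MMP19* an interaction of -0.66 to 0.20. Library size alone moved the median log2 difference of all genes to -0.25, -0.26 and -0.28 in the 3 comparisons of CDK4/6i+ATRA with non-treated, ATRA and CDK4/6i.

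The replicate numbers did not pair the libraries: the correlation of same-numbered deviations was -0.18 to 0.10, above 0.1 in 1 of 18 pairs, and 2 of 12 libraries were closest to their own number. With the replicate block, 8915 genes were called for ATRA, 7392 for CDK4/6i and 10824 for both drugs against non-treated, beside 9006, 7482 and 10885 without it. The block changed no call of a member. At a floor of 3 counts, *ADAMTS14* and *MMP19* in non-treated cells are limited by depth.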
